A study of Homo sapiens with 6 samples.

Results

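The 7 genes described here encode the core of V(D)J recombination, the cut-and-join reaction that assembles antigen receptor genes, and were chosen by name: RAG1, RAG2, DNTT, DCLRE1C, XRCC4, LIG4 and PRKDC. They are 7 of the 25838 genes in the deposited table, and each name matched 1 gene. RNA was sequenced from 3 libraries of Sup-PR, a sub-clone that resists prednisolone and was raised from Sup-B15, and from 3 libraries of Sup-B15 itself, the parental, prednisolone-sensitive line of human B-cell precursor acute lymphoblastic leukaemia. No drug, allele or time point distinguishes the groups, so they differ in cell line alone. There was 1 resistant sub-clone and 1 parental line, and any difference between them enters the same comparison. The labels call the libraries biological triplicates without saying whether the cultures were grown apart, so each p-value rests on the scatter of these libraries alone, and that scatter may be technical.

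V(D)J recombination takes place in developing B and T lymphocytes. The RAG1 and RAG2 proteins together recognise signal sequences beside the V, D and J segments of immunoglobulin and T-cell receptor genes and cut the DNA there, which leaves hairpin-sealed coding ends. Artemis, encoded by DCLRE1C, opens the hairpins when it is bound to and activated by DNA-PKcs, the kinase subunit encoded by PRKDC. Terminal deoxynucleotidyl transferase (TdT, encoded by DNTT) adds untemplated nucleotides at the junctions, and DNA ligase IV (LIG4), held by its scaffold XRCC4, seals them. RAG1, RAG2 and TdT belong to immature lymphocytes, and TdT is a routine marker of precursor lymphoblasts, whereas the joining factors serve the repair of DNA breaks in all cell types.

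The promoter windows of 3 members are shown because these members span the range of differences between the lines: RAG2 overlapped between the lines, DNTT was modestly lower in Sup-PR cells, and LIG4 was the member with the strongest fall. Each window holds 250 bases before and 50 bases after a RefSeq start, 300 bases in all, in the GRCh38.p14 build, and is written 5′ to 3′ on the strand of the gene. RAG2 lies at chr11:36598187-36598486 (minus strand), DNTT at chr10:96304184-96304483 (plus strand), the first LIG4 window at chr13:108218300-108218599 (minus strand) and the second at chr13:108215487-108215786 (minus strand). Capitals mark exact matches, on either strand, to CAGGTG (the E-box that E2A proteins prefer), TGGGAA (the Ikaros core), TATAAA (the TATA box), CCAAT (bound by NF-Y), GGGCGG (the GC box) or CCGGAAGT (for ETS factors).
RAG2: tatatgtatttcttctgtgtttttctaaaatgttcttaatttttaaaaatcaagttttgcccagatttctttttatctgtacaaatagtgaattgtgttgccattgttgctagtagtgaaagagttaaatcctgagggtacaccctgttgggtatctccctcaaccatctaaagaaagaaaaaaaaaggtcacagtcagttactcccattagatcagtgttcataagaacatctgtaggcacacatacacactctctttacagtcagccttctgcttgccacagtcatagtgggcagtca
DNTT: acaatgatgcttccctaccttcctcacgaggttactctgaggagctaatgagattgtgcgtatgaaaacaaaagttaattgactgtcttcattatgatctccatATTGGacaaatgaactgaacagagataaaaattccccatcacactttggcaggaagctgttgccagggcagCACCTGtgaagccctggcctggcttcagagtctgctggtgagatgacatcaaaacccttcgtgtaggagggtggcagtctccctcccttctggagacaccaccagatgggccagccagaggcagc
LIG4 first start: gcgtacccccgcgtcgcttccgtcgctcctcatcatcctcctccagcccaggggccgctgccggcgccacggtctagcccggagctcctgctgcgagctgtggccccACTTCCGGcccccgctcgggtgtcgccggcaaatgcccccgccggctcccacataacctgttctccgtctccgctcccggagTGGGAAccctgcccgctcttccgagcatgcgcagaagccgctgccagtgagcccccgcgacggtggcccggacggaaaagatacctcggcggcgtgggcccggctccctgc
LIG4 second start: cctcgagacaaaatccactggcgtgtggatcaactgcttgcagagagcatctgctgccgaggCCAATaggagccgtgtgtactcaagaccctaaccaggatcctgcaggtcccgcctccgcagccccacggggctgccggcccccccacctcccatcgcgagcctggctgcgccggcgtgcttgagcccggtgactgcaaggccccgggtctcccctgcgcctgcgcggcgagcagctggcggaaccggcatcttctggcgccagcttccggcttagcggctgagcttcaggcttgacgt
These windows differ in base composition as well as in motifs. The RAG2 window held 36.7% G and C, the DNTT window 49.3%, and the LIG4 windows 72.3% and 67.3%, against a median of 58.7% over the 35116 promoters of the RefSeq table. None of the 6 capitalised motifs occurred in the RAG2 window. In the DNTT window CAGGTG lay on the reverse strand, 75 bases before the start, and CCAAT on the reverse strand, 146 bases before it. The first LIG4 window held an ETS match on the reverse strand 143 bases before the start and an Ikaros core 61 bases before it, and the second held CCAAT 188 bases before its start. CAGGTG was present in 20.6% of all promoters of this length, TGGGAA in 24.0%, CCAAT in 34.6%, TATAAA in 11.5%, GGGCGG in 45.0% and CCGGAAGT in 4.14%. A match is a description of letters and not of bound factor. The first LIG4 window also spans the start of ABHD13, which is transcribed away from LIG4, and of the 5 coding transcripts of LIG4 in GENCODE 29, 1 starts within 50 bases of the first RefSeq start and 3 within 50 bases of the second. RefSeq gives LIG4 5 windows, and the others, which are not shown, each held CAGGTG at 2 places. A pair of these, which overlap each other, also held GGGCGG and TGGGAA, and the remaining window held CCAAT. RefSeq windows were found for 6 of the 7 members. The RAG1 window is not shown because its RefSeq start lies 57672 bases from the start of the coding transcript.

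All 7 genes passed the filter on low counts and entered the fit over 14869 genes. Levels are compared between genes as FPKM, which divides by gene length, and between lines for 1 gene as CPM, its counts relative to the scaled library total. A gene was called when its adjusted p in edgeR's quasi-likelihood test was under 0.05 and its fold change was over 1.5. By this rule 2 members, RAG1 and LIG4, fell in Sup-PR cells, 0 rose and 5 were not called. Of all genes tested, 15.4% were called lower and 7.53% higher by the same rule. By adjusted p alone 4 members were lower (RAG1, DNTT, DCLRE1C and LIG4) and 0 higher, where 27.4% of all genes were lower and 28.0% higher. The 3 Sup-PR libraries lay below all 3 Sup-B15 libraries for 5 members, these 4 and XRCC4, and the lines overlapped for RAG2 and PRKDC. Over all genes tested, the Sup-PR libraries lay wholly below for 30.3% and wholly above for 30.8%. The median log2 fold change of the members was -0.34, against -0.01 over all genes tested. In bulk RNA, fewer cells that carry a transcript and less of it per cell cannot be told apart.

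**Figure D1:**
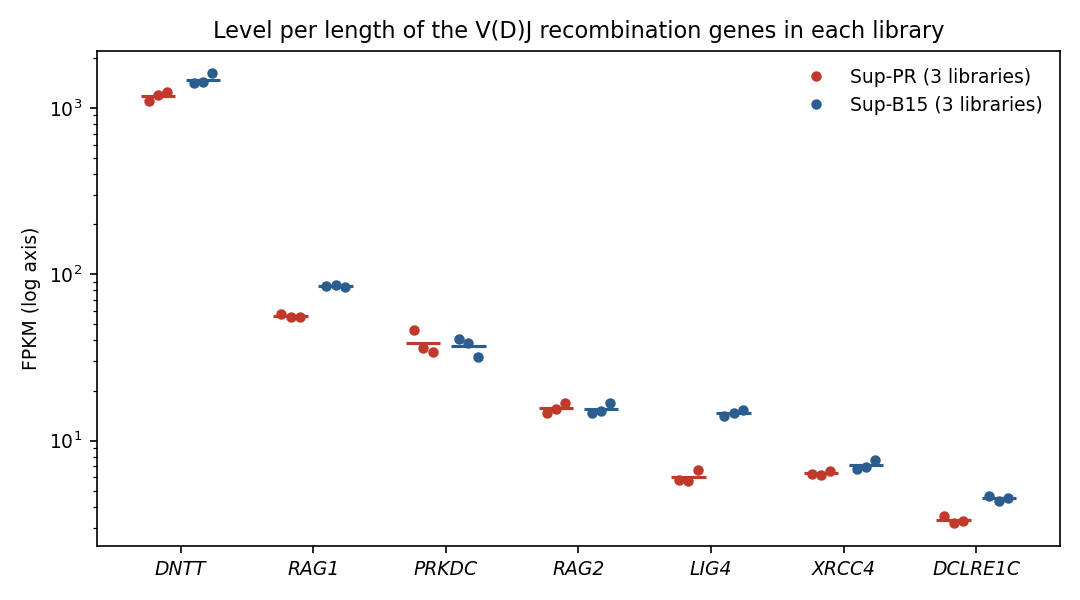
FPKM on a log axis for each of the 7 genes, with 1 point per library, Sup-PR at the left and Sup-B15 at the right of each gene, and a bar at the mean of 3 libraries. DNTT stands highest in both lines, at 1098 to 1242 in Sup-PR and 1402 to 1615 in Sup-B15, and LIG4 shows the widest gap between lines, at 5.73 to 6.70 in Sup-PR and 14.0 to 15.3 in Sup-B15.

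The lines agreed on most of the order of levels per length. In Sup-PR cells, mean FPKM ran from DNTT (1178 ± 73.2) over RAG1 (56.3 ± 1.21), PRKDC (38.8 ± 6.71), RAG2 (15.6 ± 1.03), XRCC4 (6.35 ± 0.209) and LIG4 (6.07 ± 0.540) to DCLRE1C (3.33 ± 0.175; SD, n = 3 each). In Sup-B15 cells it ran from DNTT (1480 ± 118) over RAG1 (84.8 ± 0.808), PRKDC (36.9 ± 4.60), RAG2 (15.5 ± 1.15), LIG4 (14.6 ± 0.666) and XRCC4 (7.10 ± 0.501) to DCLRE1C (4.501 ± 0.141; SD, n = 3 each). LIG4 therefore stood beside XRCC4 in Sup-PR cells and beside RAG2 in Sup-B15 cells. Those are also the neighbours that did not separate: LIG4 and XRCC4 overlapped in range in Sup-PR, with XRCC4 higher in 2 of 3 libraries, and RAG2 and LIG4 overlapped in Sup-B15. The other neighbours in each order had separate ranges. Among all 25838 genes, DNTT ranked 18 by mean FPKM in Sup-PR and 13 in Sup-B15. RAG1 ranked 771 in Sup-PR and 401 in Sup-B15, and LIG4 ranked 6435 in Sup-PR and 3277 in Sup-B15.

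RAG1 encodes the subunit of the recombinase that holds the active site. It is ENSG00000166349, at chr11:36510709-36593156 on the plus strand (GRCh38), with 7815 exon bases. RAG1 had 458, 436 and 432 CPM in the Sup-PR libraries, against 671, 675 and 664 CPM in the Sup-B15 libraries. The lines were far apart relative to the spread within each, and no libraries overlapped. The means were 441.9 ± 14.3 CPM in Sup-PR and 669.9 ± 5.10 CPM in Sup-B15 (SD, n = 3 each), so the Sup-PR level was 66.0% of the Sup-B15 level. The log2 fold change was -0.60 (SE 0.05, 95% interval -0.71 to -0.49, adjusted p 3.4e-07). That interval reaches across the fold threshold, which lies at 0.585 on the log2 scale, and RAG1 was not called when the test was made against a fold of 1.5 (adjusted p 0.737 with edgeR's glmTreat) or on log2(FPKM + 1) with limma, where its log2 fold change was -0.58.

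RAG2 encodes the partner subunit, which reads histone marks at active chromatin, and its gene lies beside RAG1 on the opposite strand. It is ENSG00000175097, at chr11:36575574-36598279 on the minus strand, with 3502 exon bases. RAG2 had 52.3, 54.2 and 58.3 CPM in the Sup-PR libraries, against 51.6, 53.4 and 59.5 CPM in the Sup-B15 libraries. The libraries of both lines interleaved. The log2 fold change was 0.00 (SE 0.07, adjusted p 0.966), and its 95% interval of -0.14 to 0.15 lies inside the 1.5-fold limits. The exons of RAG1 and RAG2 share 588 bases, which is 7.5% of RAG1 and 16.8% of RAG2, and RAG2 shares a further 321 bases with C11orf74. Whether the counting used strand is not given in the sources used here, so reads in those bases may not have been told apart.

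The ratio of RAG1 to RAG2 within a library set the pair directly against each other. It was 3.92, 3.60 and 3.32 in the Sup-PR libraries, against 5.83, 5.66 and 5.01 in the Sup-B15 libraries, as a ratio of FPKM. Every Sup-PR ratio lay below every Sup-B15 ratio, with a difference in mean log2 ratio of -0.61. The exact two-sided permutation test gave p = 0.1, the smallest that 3 against 3 libraries allow, and 0.125 after adjustment over the 5 ratios tested, so this design could not reach 0.05.

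DNTT encodes TdT. It is ENSG00000107447, at chr10:96304396-96338564 on the plus strand, with 1972 exon bases, none of them shared with another annotated gene. DNTT had 2201, 2359 and 2435 CPM in the Sup-PR libraries, against 2796, 2826 and 3224 CPM in the Sup-B15 libraries. The Sup-PR libraries lay below, and the Sup-B15 line had 1 library well above the other two. Sup-PR over Sup-B15, this was a log2 fold change of -0.34 (SE 0.07, 95% interval -0.49 to -0.19, adjusted p 0.00096), which passed the adjusted p but not the fold threshold. Transcripts of this gene alone took 0.218%, 0.230% and 0.234% of all counts in the Sup-PR libraries, against 0.288%, 0.293% and 0.323% in the Sup-B15 libraries. DNTT exceeded RAG1 in FPKM by a ratio of 19.0, 21.5 and 22.3 in the Sup-PR libraries, against 16.5, 16.6 and 19.2 in the Sup-B15 libraries. These ratios overlapped between the lines (difference in mean log2 ratio 0.26, exact permutation p = 0.2, adjusted 0.2).

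DCLRE1C encodes Artemis, the nuclease that opens the hairpins. It is ENSG00000152457, at chr10:14897359-14954432 on the minus strand, with 6326 exon bases, 2.5% of them shared with SUV39H2. DCLRE1C had 22.7, 20.2 and 20.6 CPM in the Sup-PR libraries, against 29.7, 27.8 and 28.9 CPM in the Sup-B15 libraries. All Sup-PR libraries were lower, and the groups did not overlap. This gave a log2 fold change of -0.44 (SE 0.08, 95% interval -0.61 to -0.28, adjusted p 0.00024), again past the adjusted p and not the fold threshold. SUV39H2 itself, the histone methyltransferase gene that shares those bases, had a log2 fold change of 0.11 (adjusted p 0.15).

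PRKDC encodes DNA-PKcs, which the Ku proteins recruit to DNA ends. It is ENSG00000253729, at chr8:47773108-47960183 on the minus strand, and its 15417 exon bases make it the longest of the 7 transcript models. PRKDC had 728, 554 and 522 CPM in the Sup-PR libraries, against 634, 596 and 496 CPM in the Sup-B15 libraries. The first library of each line was its highest and the third its lowest, and the lines overlapped. The log2 fold change was 0.06 (SE 0.14, adjusted p 0.72), with a 95% interval of -0.25 to 0.38. Its coefficient of variation was 18.5% in Sup-PR and 12.4% in Sup-B15, against 0.761% to 8.1% for the other members. On the log2 scale the PRKDC libraries deviated from the mean of their own line by 0.29, -0.10 and -0.19 in Sup-PR and by 0.15, 0.06 and -0.21 in Sup-B15. The median deviation of 1361 genes with more than 10000 exon bases had the same order, at 0.04, -0.01 and -0.03 in Sup-PR and 0.05, 0.02 and -0.06 in Sup-B15, and its part in the PRKDC values was not tested. The ratio of DCLRE1C to PRKDC was 0.0758, 0.0890 and 0.0959 in the Sup-PR libraries, against 0.114, 0.114 and 0.142 in the Sup-B15 libraries (exact permutation p = 0.1, adjusted 0.125).

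LIG4 encodes DNA ligase IV, the enzyme that joins the ends in the last step. It is ENSG00000174405, at chr13:108207439-108218368 on the minus strand, with 4387 exon bases that overlap no other annotated exon. LIG4 had 25.8, 25.2 and 29.2 CPM in the Sup-PR libraries, against 62.0, 64.4 and 68.0 CPM in the Sup-B15 libraries. The highest Sup-PR library was below the lowest Sup-B15 library by a margin several times the spread within either line. The means were 26.7 ± 2.15 CPM in Sup-PR and 64.8 ± 2.99 CPM in Sup-B15 (SD, n = 3 each), a level in Sup-PR of 41.3% of that in Sup-B15. In edgeR the log2 fold change was -1.28 (SE 0.07, 95% interval -1.43 to -1.12, adjusted p 7.2e-09), and the interval lies wholly beyond the fold threshold. Of all genes tested, 8.66% had a larger change in either direction, against 25.6% for RAG1.

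XRCC4 encodes the scaffold that stabilises ligase IV. It is ENSG00000152422, at chr5:83077498-83353787 on the plus strand, with 2676 exon bases. XRCC4 had 17.03, 16.60 and 17.51 CPM in the Sup-PR libraries, against 18.2, 18.6 and 20.8 CPM in the Sup-B15 libraries. The Sup-PR libraries lay below without overlap, but by little. The log2 fold change of -0.17 (SE 0.09, 95% interval -0.36 to 0.01) did not pass the test (adjusted p 0.104). At the RNA level, the ligase and its scaffold thus stood in a different proportion in the libraries of each line. The ratio of LIG4 to XRCC4 in FPKM was 0.925, 0.926 and 1.02 in the Sup-PR libraries, against 2.08, 2.11 and 2.00 in the Sup-B15 libraries. The difference in mean log2 ratio was -1.11 (exact two-sided permutation p = 0.1, adjusted 0.125, at the floor of this design).

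**Figure D2:**
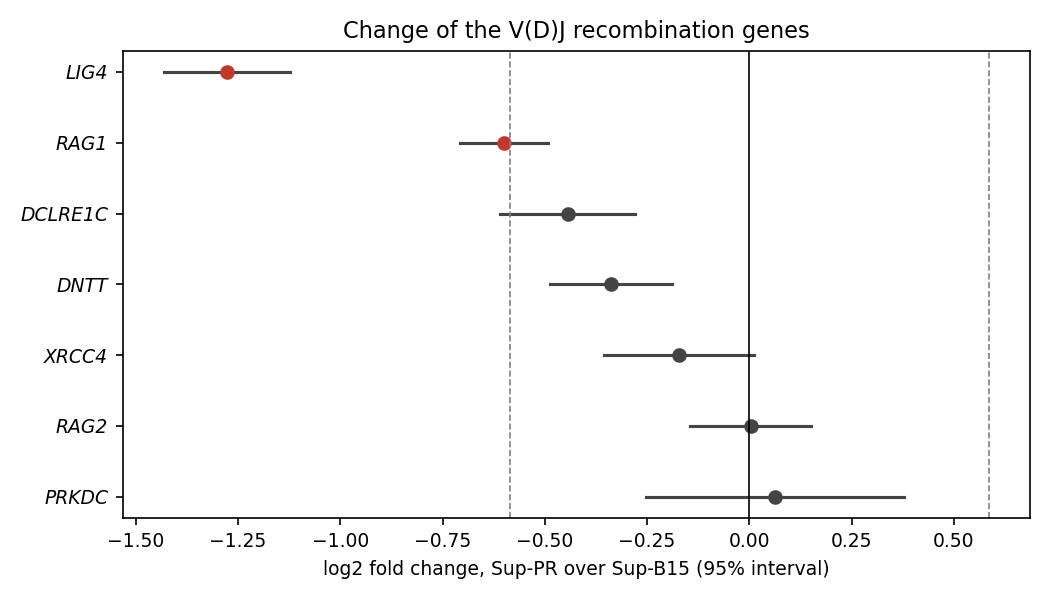
Log2 fold change of each of the 7 genes, Sup-PR over Sup-B15, from edgeR's quasi-likelihood fit, with bars for the 95% interval and dashed lines at a fold of 1.5, red where both thresholds were passed. LIG4 at -1.28 lies beyond the dashed line with its whole interval, RAG1 at -0.60 lies on the line, and the intervals of XRCC4, RAG2 and PRKDC span 0.

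**Figure D3:**
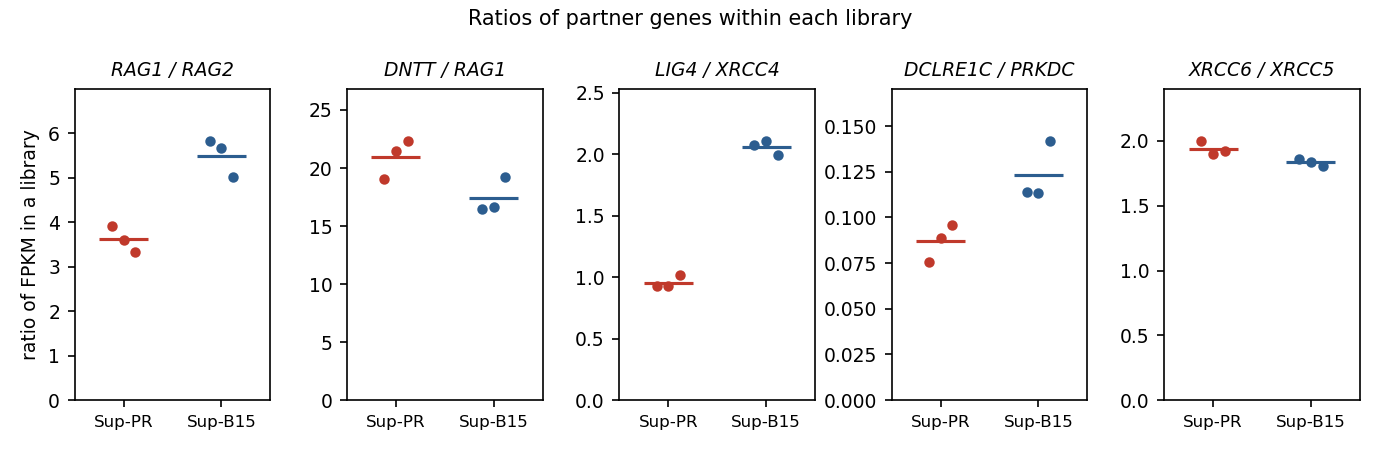
Ratio of FPKM between partner genes within each library, 1 panel per pair with its own linear axis from 0, 1 point per library and a bar at the mean of 3, Sup-PR left and Sup-B15 right. The ratio of LIG4 to XRCC4 lies at 0.925 to 1.02 in Sup-PR and 2.00 to 2.11 in Sup-B15, and the ratio of DNTT to RAG1 overlaps between the lines.

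No other gene of end joining that was tested fell past both thresholds as LIG4 did. Of 11 listed partners and end-processing factors, 10 were tested, and 0 passed both thresholds in either direction. By adjusted p 3 were higher and 4 lower, with a median log2 fold change of 0.14. Of all genes tested, 7.53% were called higher and 15.4% lower by both thresholds. By adjusted p alone, 28.0% of all genes were higher and 27.4% lower. XRCC5 and XRCC6 encode the Ku proteins, which bind DNA ends first. XRCC5 had 563, 607 and 627 CPM in the Sup-PR libraries, against 468, 475 and 517 CPM in the Sup-B15 libraries (log2 fold change 0.30, adjusted p 0.00067). XRCC6 had 678, 694 and 726 CPM in the Sup-PR libraries, against 524, 525 and 563 CPM in the Sup-B15 libraries (log2 fold change 0.38, adjusted p 4.4e-05). Both Ku genes were thus higher in every Sup-PR library, within 1.5-fold, while the ratio of XRCC6 to XRCC5 averaged 1.94 in Sup-PR and 1.84 in Sup-B15 (exact permutation p = 0.1, adjusted 0.125). PAXX, a further Ku-binding factor, averaged 48.9 CPM in Sup-PR and 39.4 CPM in Sup-B15 (adjusted p 0.00086). POLM and POLL, the polymerases of the same family as TdT that fill gaps at the junction, were lower by adjusted p, POLM at 36.2 CPM in Sup-PR and 50.8 CPM in Sup-B15 (log2 fold change -0.49, adjusted p 0.00072) and POLL at 4.63 CPM in Sup-PR and 6.08 CPM in Sup-B15 (log2 fold change -0.40, adjusted p 0.0286). The same held for APLF, an accessory factor of end joining (log2 fold change -0.38, adjusted p 0.0276). Of the APLF exon bases, 22.8% are shared with PROKR1 on the same strand. NHEJ1, the gene of the XRCC4-like factor XLF, had 1, 1 and 3 counts in the Sup-PR libraries and 3, 4 and 2 counts in the Sup-B15 libraries and was not tested. As 65.4% of its exon bases are shared with AC068946.1 on the same strand, its level cannot be read from these counts.

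Of 15 genes that sense DNA breaks and protect the ends, all were tested, 2 rose past both thresholds and 0 fell, where 7.53% of all genes tested were called higher and 15.4% lower. By adjusted p 5 were higher and 3 lower, where that rule marked 28.0% of the whole fit as higher and 27.4% as lower. RAD50, among those that did not pass, had 34 to 66 counts per library and shares 79.7% of its exon bases with other genes on the same strand, so its level cannot be read from these counts. The genes that rose were SHLD2 and SHLD3, subunits of shieldin, which limits the resection of broken ends downstream of TP53BP1. SHLD2 had 64.1, 68.0 and 72.7 CPM in the Sup-PR libraries, against 39.1, 33.2 and 38.1 CPM in the Sup-B15 libraries (log2 fold change 0.90, SE 0.07, adjusted p 3.3e-07). SHLD3 averaged 6.60 CPM in Sup-PR and 4.29 CPM in Sup-B15 (log2 fold change 0.63, adjusted p 0.00236). Exons of other genes overlap 10.9% of the SHLD2 bases (GLUD1), 17.4% of the SHLD3 bases (TRAPPC13) and 28.7% of the TP53BP1 bases (TUBGCP4). RIF1, which acts between TP53BP1 and shieldin, was higher by adjusted p (228 CPM in Sup-PR and 162 CPM in Sup-B15, log2 fold change 0.50, adjusted p 5.4e-06), whereas TP53BP1 was lower by adjusted p (log2 fold change -0.28, adjusted p 0.00575). ATM, the kinase that signals RAG-made breaks, averaged 124 CPM in Sup-PR and 182 CPM in Sup-B15 (log2 fold change -0.56, adjusted p 2.5e-05), just inside 1.5-fold.

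In alternative end joining, the route that works without ligase IV, 0 of 6 genes passed both thresholds in either direction. Of these 6, 2 were higher and 1 lower by adjusted p. For scale, the adjusted p alone marked 28.0% of the 14869 genes in the fit as higher and 27.4% as lower. Both thresholds together marked 7.53% as higher and 15.4% as lower. PARP1, which binds broken ends, averaged 1761 ± 17.5 CPM in Sup-PR and 1479 ± 14.1 CPM in Sup-B15 (log2 fold change 0.25, adjusted p 0.00104). LIG3, the ligase of this route, averaged 59.3 ± 2.66 CPM in Sup-PR and 48.2 ± 3.62 CPM in Sup-B15 (SD, n = 3 each) and had a log2 fold change of 0.30 (adjusted p 0.0019). Both lay above Sup-B15 in all Sup-PR libraries. Of the LIG3 exon bases, 30.5% are shared with CCT6B and RFFL on the opposite strand, so reads there may not have been told apart. POLQ, the polymerase of the route, had a log2 fold change of -0.07 (adjusted p 0.727).

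Cofactors of the RAG proteins and the genes of their turnover moved within 1.5-fold. Of 8 tested, 0 passed both thresholds in either direction, and by adjusted p 4 were higher and 2 lower. Over all genes tested, both thresholds were passed by 7.53% as higher and 15.4% as lower. The shares by adjusted p alone were 28.0% higher and 27.4% lower. HMGB1 and HMGB2 encode DNA-bending proteins that help RAG1 and RAG2 to bind their signals. HMGB1 averaged 2073 CPM in Sup-PR and 1898 CPM in Sup-B15 (adjusted p 0.124), and HMGB2 averaged 481 CPM in Sup-PR and 558 CPM in Sup-B15 (adjusted p 0.0108). DCAF1, DDB1 and CUL4A, parts of a ubiquitin ligase that acts on RAG1 protein in the mouse, had log2 fold changes of 0.36 (adjusted p 0.00021), 0.34 (adjusted p 4.6e-05) and 0.25 (adjusted p 0.00047). Exons of RBM15B overlap 19.3% of the DCAF1 bases. SKP2, which directs the removal of RAG2 protein at entry into S phase, averaged 102 CPM in Sup-PR and 80.9 CPM in Sup-B15 (log2 fold change 0.33, adjusted p 0.00025).

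Of 30 transcription factors known to act on the RAG genes or their enhancers in some lymphocyte setting, 29 were tested, 5 fell and 1 rose, and by adjusted p 17 were lower and 7 higher. The share that fell is near the 15.4% of all genes tested that were called lower, where 7.53% were called higher. By adjusted p alone, 27.4% of all genes tested were lower and 28.0% higher, so the list held a larger share of lower genes by that rule. The median log2 fold change of the list was -0.29. The 5 that fell were ETS1, IRF4, BACH2, ID2 and SPI1. ETS1 had 78.3, 73.6 and 78.5 CPM in the Sup-PR libraries, against 155, 159 and 144 CPM in the Sup-B15 libraries (log2 fold change -0.99, adjusted p 8e-09). BACH2, a repressor active in B-cell precursors, had 73.9, 74.8 and 75.1 CPM in the Sup-PR libraries, against 116, 114 and 127 CPM in the Sup-B15 libraries (log2 fold change -0.67, adjusted p 3.6e-07). In both cases every Sup-PR library was far below the Sup-B15 range. IRF4 averaged 145 CPM in Sup-PR and 264 CPM in Sup-B15, ID2, an inhibitor of E proteins, 28.0 CPM in Sup-PR and 52.2 CPM in Sup-B15, and SPI1 (PU.1) 3.16 CPM in Sup-PR and 14.3 CPM in Sup-B15. The gene that rose was GATA3, a factor of the T lineage, at 2.41, 3.87 and 3.18 CPM in the Sup-PR libraries, against 0.286, 0.218 and 0.105 CPM in the Sup-B15 libraries (log2 fold change 3.93, adjusted p 8.2e-07).

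The 3 E-protein genes of the list did not share a direction, and none passed the fold threshold. TCF3 (E2A) was higher by adjusted p, at 1255 ± 24.0 CPM in Sup-PR and 999 ± 44.0 CPM in Sup-B15 (log2 fold change 0.33, adjusted p 0.00018), and TCF12 (HEB) lower, at 275 ± 2.13 CPM in Sup-PR and 406 ± 10.2 CPM in Sup-B15 (SD, n = 3 each), with a log2 fold change of -0.56 (adjusted p 3.8e-07). TCF4 was lower by adjusted p, with a log2 fold change of -0.15 (adjusted p 0.0149). FOXO1, an activator of both RAG genes in mouse B-cell precursors, had 76.2, 81.8 and 80.7 CPM in the Sup-PR libraries, against 110, 107 and 102 CPM in the Sup-B15 libraries (log2 fold change -0.42, adjusted p 2.2e-05). EBF1 was lower by adjusted p (log2 fold change -0.52, adjusted p 8.4e-07), and PAX5 had a log2 fold change of -0.17 (adjusted p 0.0108). Other factors were higher by adjusted p, within 1.5-fold: SATB1 with a log2 fold change of 0.50 (adjusted p 3.4e-06), RUNX1 with 0.41 (adjusted p 1.3e-05) and FOXO3 with 0.32 (adjusted p 0.00539). IKZF1, which encodes Ikaros, overlapped between the lines at 697 CPM in Sup-PR and 690 CPM in Sup-B15 (adjusted p 0.827).

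**Figure D4:**
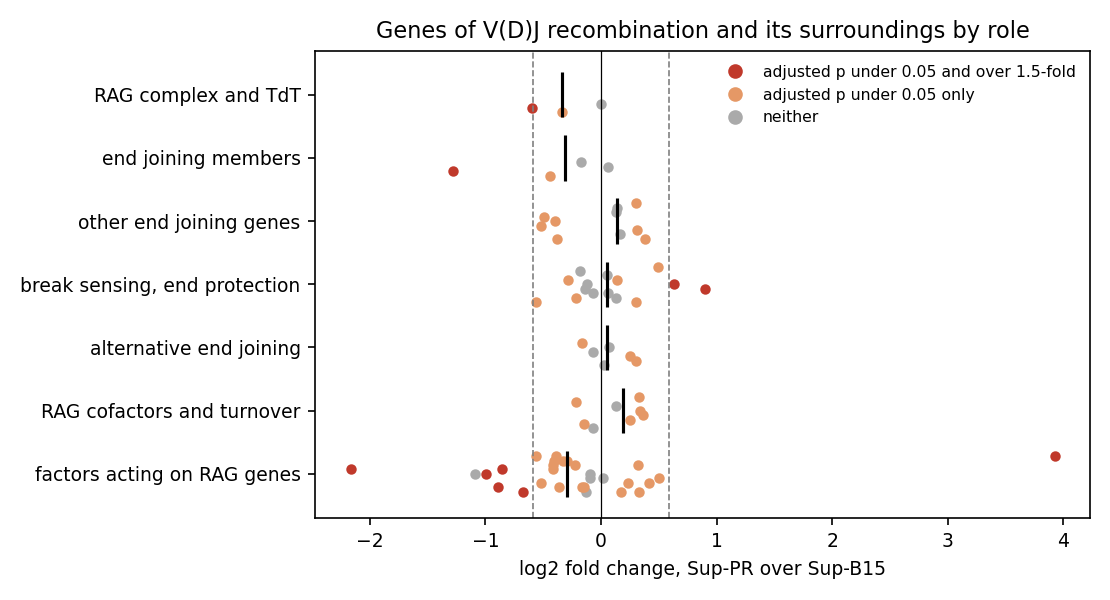
Log2 fold change, Sup-PR over Sup-B15, of every tested gene in 7 lists that cover V(D)J recombination and its surroundings, 1 point per gene, with a bar at the median of each list, dashed lines at a fold of 1.5, red for genes past both thresholds, orange for adjusted p alone and grey for neither. LIG4 at -1.28 and RAG1 at -0.60 are the only red points among the members, and GATA3 at 3.93 stands at the far right.

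RAG-expressing B-cell precursors also carry the surrogate light chain and early surface markers. Of 10 such genes tested, 4 fell, 0 rose, and 6 were lower by adjusted p, where 15.4% of all genes tested fell and 27.4% were lower by adjusted p, with a median log2 fold change of -0.42. VPREB1 and IGLL1, which encode the surrogate light chain that pairs with newly recombined heavy chains, were not called: VPREB1 averaged 225 CPM in Sup-PR and 216 CPM in Sup-B15 (adjusted p 0.406), and IGLL1 averaged 1790 CPM in Sup-PR and 2027 CPM in Sup-B15 (adjusted p 0.0717). Among the genes that fell were BLNK and SYK, which relay the pre-B-cell receptor signal, and the surface marker MME (CD10). MME averaged 234 CPM in Sup-PR and 362 CPM in Sup-B15 (log2 fold change -0.63, adjusted p 9.7e-07), and SYK averaged 181 CPM in Sup-PR and 287 CPM in Sup-B15 (log2 fold change -0.67, adjusted p 6.1e-08). In the marker list for precursor B cells, all 15 genes were measured and tested, as the labelled cell type would have it, and 7 fell and 0 rose. Its summed level was 8086 to 8846 CPM in the Sup-PR libraries, against 11120 to 12330 CPM in the Sup-B15 libraries. RAG1 and DNTT are themselves in that list, and the part of the remaining markers in their lower levels was not tested.

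Markers of other cell types were summed in the same way. Of 8 T-cell markers 3 were measured and 2 tested, and their summed level was 10.8 to 16.4 CPM in the Sup-PR libraries, against 69.5 to 85.1 CPM in the Sup-B15 libraries. LCK and TRAC made up nearly all of this sum, and CD8A was at 0 in 5 of the 6 libraries. Myeloid markers summed to 6.43 to 8.79 CPM in Sup-PR and 16.8 to 24.8 CPM in Sup-B15, and NK-cell markers to 22.7 to 23.9 CPM in Sup-PR and 52.9 to 60.6 CPM in Sup-B15. Mature B-cell and plasma-cell markers summed to 664 to 754 CPM in Sup-PR and 974 to 1083 CPM in Sup-B15. XBP1 made up most of this sum, at 606 to 687 CPM in Sup-PR and 768 to 866 CPM in Sup-B15. Of the 5 tested genes, 2 fell past both thresholds and 3 were lower by adjusted p. Among all genes tested these shares were 15.4% and 27.4%. The erythroid and stromal sums did not exceed 0.368 and 12.3 CPM in any library. NKG7 made up nearly all of the NK-cell sum, and PDGFRB nearly all of the stromal sum. Such sums do not show that cells of these types were present, and their relation to the members' values was not tested.

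The chromosomal neighbours of the members were read from the same fit. Around the RAG genes, TRAF6, 437 bases away, had 20.3, 23.1 and 21.5 CPM in the Sup-PR libraries, against 22.1, 20.8 and 21.9 CPM in the Sup-B15 libraries (log2 fold change 0.01, adjusted p 0.94), and C11orf74, which overlaps RAG2, had a log2 fold change of 0.20 (adjusted p 0.416). PRR5L, 45505 bases away on the far side of TRAF6, had 1, 1 and 4 counts in the Sup-PR libraries, against 26, 49 and 32 counts in the Sup-B15 libraries (log2 fold change -4.09, adjusted p 5e-06). API5, 6713684 bases away on the other side, averaged 239.7 CPM in Sup-PR and 209.1 CPM in Sup-B15 (log2 fold change 0.20, adjusted p 0.00286). The genes nearest to RAG1 and RAG2 thus overlapped between the lines, PRR5L was lower, and API5 was higher by adjusted p within 1.5-fold.

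Around DNTT all 4 neighbours fell: ZNF518A and BLNK on 1 side, OPALIN and TLL2 on the other. Of all genes tested, 15.4% were called lower. ZNF518A and BLNK overlap on opposite strands, and 9.7% of the BLNK exon bases are shared with ZNF518A. Reads in those bases may not have been told apart. BLNK, 32809 bases away, had 123, 121 and 125 CPM in the Sup-PR libraries, against 214, 217 and 238 CPM in the Sup-B15 libraries (log2 fold change -0.86, adjusted p 2.1e-08). ZNF518A averaged 36.0 CPM in Sup-PR and 70.7 CPM in Sup-B15 (log2 fold change -0.97, adjusted p 2.6e-08), OPALIN 4.10 CPM in Sup-PR and 7.92 CPM in Sup-B15 (log2 fold change -0.95, adjusted p 4.9e-05), and TLL2 1.81 CPM in Sup-PR and 5.55 CPM in Sup-B15 (log2 fold change -1.64, adjusted p 0.0002). DNTT at -0.34 had the smallest change of these 5 genes. The neighbours of LIG4 were read after their values were seen. ABHD13, which starts 11 bases from LIG4 in the opposite direction, had 28.6, 32.2 and 34.3 CPM in the Sup-PR libraries, against 30.6, 36.6 and 37.5 CPM in the Sup-B15 libraries (log2 fold change -0.14, adjusted p 0.2), so the gene that shares the first LIG4 start region overlapped between the lines. ARGLU1, on the other side, was lower by adjusted p within 1.5-fold (log2 fold change -0.31, adjusted p 0.0402), and FAM155A and TNFSF13B were not tested. The neighbours of DCLRE1C, XRCC4 and PRKDC were also read after their values were seen. Only HSPA14, 25618 bases from DCLRE1C, rose, at 33.2 CPM in Sup-PR and 22.1 CPM in Sup-B15 (log2 fold change 0.59, adjusted p 1.8e-05). TMEM167A beside XRCC4 (0.20, adjusted p 0.00494) and MCM4 (0.29, adjusted p 0.00023) and UBE2V2 (0.35, adjusted p 0.00109) beside PRKDC were higher within 1.5-fold. SUV39H2, ATP6AP1L and SPIDR did not pass the adjusted p, and the others were not tested.

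**Figure D5:**
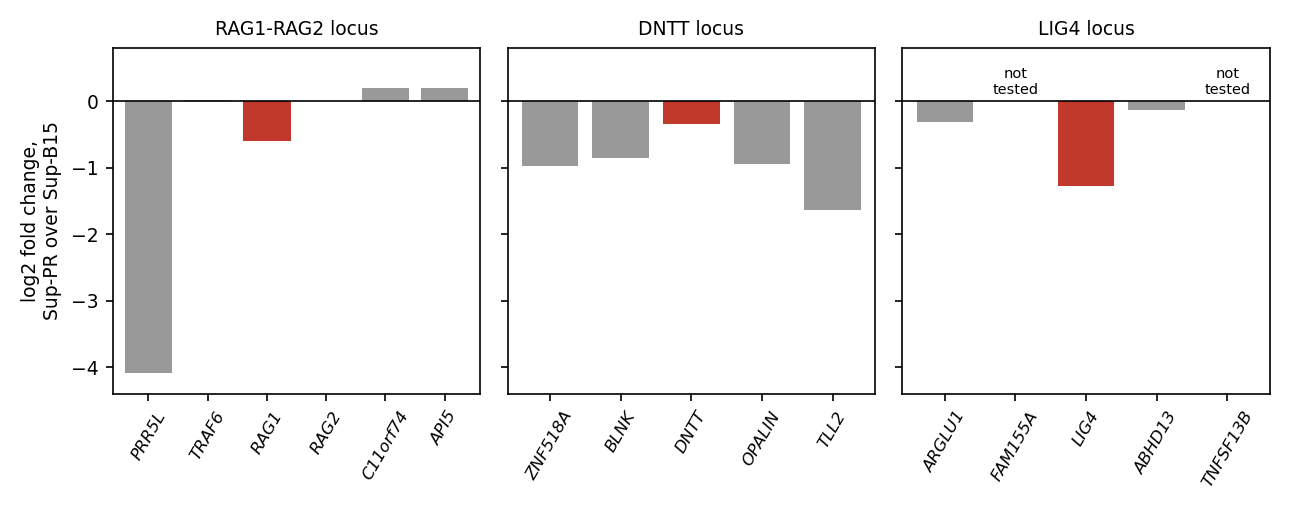
Log2 fold change, Sup-PR over Sup-B15, of RAG1 and RAG2, DNTT and LIG4 (red) and of the nearest protein-coding genes in the table on each side (grey), in order along the chromosome from left to right, with bars from 0. TRAF6 at 0.01 and RAG2 at 0.00 are too small to see, all 4 neighbours of DNTT lie below 0, and ABHD13 beside LIG4 lies at -0.14.

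The genes most like a member were found by Euclidean distance over the 6 libraries, on log2 CPM centred on the Sup-B15 mean, among the 14868 other genes tested. For RAG1 they were ANKRD26 (0.0593), TNFAIP3 (0.0605), ARHGAP17 (0.0683), FAM13B (0.0704) and AAK1 (0.0827). TNFAIP3, for example, had 174, 168 and 168 CPM in the Sup-PR libraries, against 256, 258 and 245 CPM in the Sup-B15 libraries. For DNTT they were PAGR1 (0.0526), FADS2 (0.0703), XBP1 (0.0713), MGAT1 (0.0758) and ACSS1 (0.0794), and for RAG2 they were FAM220A (0.0453), HAUS3 (0.0475), HDHD5 (0.0495), YWHAQ (0.0504) and REEP5 (0.0593). LIG4, looked up after its values were seen, had no gene as near: TP53INP1 was the closest at 0.158, with 147 CPM in Sup-PR and 347 CPM in Sup-B15. None of these lists named another member.

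The libraries held 20112543 to 23608056 counts in Sup-PR and 16966569 to 26603422 counts in Sup-B15. Protein-coding genes took 97.16% to 97.56% of them and the mitochondrial chromosome 2.0% to 2.69%. No pair of libraries agreed within sampling noise, with a chi-square per gene of 3.33 to 11.29 within a line and 64.75 to 102.16 between lines over 11510 genes. At these depths XRCC4, the member with the fewest counts per library on average, had an SE of 0.09 on the log2 scale.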

How the data were processed

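RNA of 3 Sup-PR and 3 Sup-B15 libraries was sequenced from paired ends. The authors' reads were aligned to GRCh38.p12 by HISAT2. CASAVA and DESeq2 also appear in the processing notes of the submitters. Which counter, annotation and strand setting were used is not given in the sources used here, but the lengths of all 7 genes equal those of GENCODE 29. The authors deposited raw counts per gene and FPKM, which are counts divided by gene length and by a constant of each library. Their fold changes, p-values and scaled counts were not used. Every column of raw counts and of FPKM was mapped from its line name and number, and 0 of these were left out.

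Counts were filtered with filterByExpr, scaled by TMM and tested with edgeR 4.0.16 (glmQLFit with robust estimation, glmQLFTest) over 14869 genes. Adjusted p-values are Benjamini-Hochberg values over all genes tested, and the common biological coefficient of variation was 0.065. FPKM served for comparisons between genes. Ratios within libraries were compared by exact two-sided permutation tests, adjusted over 5 pairs. The script was tested on simulated data. The members and lists were chosen with earlier results of these data known. The text names all members, the list genes with the smallest adjusted p or most counts and those with a role in the pathway, the neighbours of the RAG genes and DNTT, and the 5 genes most like RAG1, RAG2 and DNTT. Neighbours of the other members and the gene most like LIG4 were added after their values were seen. Some list genes are counted but not reported here by name. The 20 alternatives were other scalings, filters and thresholds, DESeq2 1.42.0, limma 3.58.1 (voom, and log2 of FPKM plus 1 or 0.1), protein-coding genes only, the replicate block, and each library left out. R 4.3.3, Python 3.11.15, SciPy 1.17.1, pandas 2.3.3, matplotlib 3.10.9 and numpy 2.4.6 were used.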

Additional observations from a re-analysis of the deposited data

How the results depend on the processing

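LIG4 was called lower under all 20 alternatives, with log2 fold changes of -1.36 to -1.15. RAG1 kept its direction in all of them (-0.67 to -0.58) and its call in 16. It was not called with edgeR's glmTreat against a fold of 1.5 (-0.60), with limma on log2(FPKM + 1) with or without a filter (-0.583 in each case), or with thresholds of 0.01 for adjusted p and 2 for the fold (-0.60). With no minimum fold, DNTT (-0.339) and DCLRE1C (-0.444) were also called, which made 4 members lower. DNTT missed an adjusted p of 0.05 with limma on log2(FPKM + 1) without a filter (0.19). Under glmTreat, limma on log2(FPKM + 1) with or without a filter, and the stricter thresholds, 1 member was lower, against 2 otherwise. RAG2 ranged from -0.07 to 0.05 and PRKDC from -0.10 to 0.15 with no call. XRCC4 passed an adjusted p of 0.05 when library totals replaced TMM (0.0232) and when only protein-coding genes were used (0.0409), within 1.5-fold.

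Over all genes, 1120 were called higher and 2293 lower. The higher and lower counts were 484 and 1318 with glmTreat, 635 and 952 with limma on log2(FPKM + 1), 657 and 1089 without its filter, 4168 and 4069 with no minimum fold, and 348 and 1235 at the stricter thresholds, and 1297 were lower on log2(FPKM + 0.1). The causes were not tested.

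Without 1 library at a time, LIG4 lay between -1.356 and -1.243, RAG1 between -0.627 and -0.595, DCLRE1C between -0.495 and -0.422, DNTT between -0.383 and -0.281, and XRCC4 between -0.214 and -0.125. PRKDC ran from -0.098 to 0.145 and RAG2 from -0.051 to 0.053, so their signs depended on the library left out.

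Libraries of the same number deviated together with correlations of 0.236, -0.084 and 0.292 over 11510 genes, so the numbers were not taken as pairs. With the replicate block, RAG1 was at -0.601 and LIG4 at -1.280, no member's call changed, and 1134 genes were higher and 2376 lower.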

Other observations

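Several tumour suppressors and stage genes are deleted recurrently in B-cell precursor leukaemia, some of them at sites that resemble RAG signals. Of 18 such genes listed, 15 were tested, 3 fell in Sup-PR cells and 0 rose, and by adjusted p 8 were lower and 2 higher, with a median log2 fold change of -0.15. Of all genes tested, 15.4% were called lower and 7.53% higher, so the share that fell is near that of all genes. By adjusted p alone, 27.4% of all genes tested were lower and 28.0% higher, so by that rule the list held a larger share of lower genes. The genes that fell were TOX, ADD3 and CD200. TOX, a chromatin protein of lymphocyte development, had 24.9, 26.7 and 28.8 CPM in the Sup-PR libraries, against 69.8, 68.0 and 63.1 CPM in the Sup-B15 libraries (log2 fold change -1.32, adjusted p 4.9e-09). ADD3, which encodes an adducin of the membrane skeleton, averaged 52.1 ± 1.95 CPM in Sup-PR and 110.7 ± 0.435 CPM in Sup-B15 (SD, n = 3 each) and had a log2 fold change of -1.09 (adjusted p 2e-09). CD200 averaged 8.57 CPM in Sup-PR and 17.6 CPM in Sup-B15 (log2 fold change -1.04, adjusted p 7.6e-07).

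The genes higher by adjusted p were ETV6, at 97.7 ± 1.70 CPM in Sup-PR and 73.8 ± 0.716 CPM in Sup-B15, and TCF3. NR3C1, the gene of the glucocorticoid receptor that prednisolone binds, averaged 280.6 ± 2.34 CPM in Sup-PR and 300.7 ± 6.44 CPM in Sup-B15 (SD, n = 3 each) and had a log2 fold change of -0.10 (adjusted p 0.0843). CDKN2A was on the list but had no row in the deposited table, so it could not be tested. RNA counts do not show whether any of these genes is deleted.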
